A study of Mus musculus with 13 samples.

Results

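The nuclei described here are dentate gyrus granule nuclei that carried transcripts of Dsp, Lct, Npnt and Stra6. They were chosen by counts of unique molecular identifiers (UMIs, each standing for 1 captured transcript). Barcodes with fewer than 500 genes or more than 5% mitochondrial UMIs were left out. A granule nucleus had at least 1 Prox1 UMI, at least 3 of the 6 genes Prox1, C1ql2, Glis3, Trpc6, Stxbp6 and Plk5, and at least 8 UMIs of these per 10000. It also had fewer than 2 UMIs of Gad1 and Gad2 together, and fewer than 2 of Trhr, Lgr6 and Gmnc together. A program nucleus was a granule nucleus with at least 2 UMIs of Dsp, Lct, Npnt and Stra6 in sum. This gave 9852 program nuclei (members in the plots), which were 31.8% of 30972 granule nuclei and 9.34% of 105427 retained barcodes. The other 21120 granule nuclei are called other granule nuclei below.

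Nuclei came from the whole frozen hippocampus of 13 female mice. Each mouse gave 1 droplet library of nuclear RNA. The labels give the hybrid strain as C3HB6F1, and the series text writes C3B6F1. Young mice fed ad libitum were 5 months old (n = 3), and old mice fed ad libitum were 24 months old (n = 3). A group on acute dietary restriction was 24 months old and had been restricted from 20 months (n = 3). A group on long-term dietary restriction was 24 months old and had been restricted from 5 months (n = 4). The degree of restriction is not given in the labels. Hippocampi were not divided before the nuclei were isolated, so the position of a nucleus along the dentate gyrus is not recorded.

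Granule cells are the principal neurons of the dentate gyrus. They receive input from the entorhinal cortex and excite CA3 pyramidal neurons and hilar mossy cells through their mossy fibre axons, and Prox1 is the transcription factor that maintains their identity. Desmoplakin, the product of Dsp, anchors intermediate filaments to desmosomes in epithelium and heart. Lct encodes lactase, the intestinal enzyme that splits milk sugar. Nephronectin, from Npnt, is an extracellular matrix ligand of the integrin with an alpha 8 chain. Stra6 encodes the membrane receptor through which cells take up retinol from its plasma carrier.

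The 4 genes lie on different chromosomes, by the GENCODE M21 annotation of GRCm38. Dsp spans chr13:38151294-38198577 on the plus strand, Lct chr1:128284756-128328318 on the minus strand, Npnt chr3:132881745-132950291 on the minus strand and Stra6 chr9:58063788-58153996 on the plus strand. Stra6 overlaps 2 other annotated genes, so UMIs given to it may in part belong to them, because the use of strand in counting is not given in the sources used here. The 250 bases before a start of each gene are shown because pairs of these genes were detected together more often than their separate frequencies give. All 4 were detected in only 3.20% of program nuclei. These bases were taken from RefSeq windows on GRCm38.p6, all 4 genes matched, and the first window listed is printed where several exist (2 for Npnt, 4 for Stra6). Positions are chr13:38151044-38151293 for Dsp, chr1:128328319-128328568 for Lct, chr3:132950292-132950541 for Npnt and chr9:58128838-58129087 for Stra6. The Stra6 window lies inside the annotated gene, ahead of one of its inner starts. Capitals mark CANNTG, the core of an E-box, and GGGCGG on either strand, the core of a GC box.
Dsp: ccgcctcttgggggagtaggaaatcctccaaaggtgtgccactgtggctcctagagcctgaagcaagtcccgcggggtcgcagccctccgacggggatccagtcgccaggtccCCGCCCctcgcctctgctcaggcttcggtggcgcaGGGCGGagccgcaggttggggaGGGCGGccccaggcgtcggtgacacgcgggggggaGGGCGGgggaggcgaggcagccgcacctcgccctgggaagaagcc
Lct: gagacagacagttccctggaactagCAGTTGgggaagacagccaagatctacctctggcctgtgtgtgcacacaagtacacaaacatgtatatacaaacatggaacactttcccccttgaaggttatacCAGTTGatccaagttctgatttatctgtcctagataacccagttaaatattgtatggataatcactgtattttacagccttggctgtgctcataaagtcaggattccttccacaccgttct
Npnt: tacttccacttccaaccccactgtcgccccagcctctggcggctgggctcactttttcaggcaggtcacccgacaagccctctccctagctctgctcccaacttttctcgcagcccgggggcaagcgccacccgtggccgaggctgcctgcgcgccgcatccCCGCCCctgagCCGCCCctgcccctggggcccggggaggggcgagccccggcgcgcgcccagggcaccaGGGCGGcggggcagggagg
Stra6: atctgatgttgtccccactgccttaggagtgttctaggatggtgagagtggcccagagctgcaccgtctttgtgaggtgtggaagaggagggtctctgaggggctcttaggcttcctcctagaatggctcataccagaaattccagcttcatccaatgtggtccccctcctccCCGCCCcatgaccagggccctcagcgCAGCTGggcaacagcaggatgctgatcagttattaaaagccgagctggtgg
The windows differed in composition. GC content was 72.4% for Dsp, 42.8% for Lct, 74.0% for Npnt and 56.4% for Stra6, against a median of 52.4% over 32851 windows of the same length. GGGCGG occurred 4 times before Dsp, 3 times before Npnt and 1 time before Stra6, and 32.7% of all windows held it. CANNTG reads the same on both strands and may share an end base with GGGCGG. It occurred 2 times before Lct and 1 time before Stra6, and 66.2% of all windows held it. Neither motif was shared by all 4 windows.

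Depth and library effects bear on everything below. Libraries held 38546292 to 80538090 UMIs. The libraries numbered 1 in the labels stood apart: in program nuclei, deviations from the group mean correlated at 0.27 to 0.70 across genes between libraries numbered 1, against -0.56 to 0.47 between libraries of different numbers. Replicate numbers as a whole did not pair the mice, with correlations between same-numbered libraries from -0.11 to 0.70. The old ad libitum library numbered 1 was also the smallest, with 626 granule nuclei. Of the barcode sequences retained, 1351 occurred in more than 1 library, and 252 program nuclei had such a sequence. Scrublet, a doublet caller, marked 12.04% of program nuclei, 10.5% of other granule nuclei and 7.01% of all retained barcodes among its highest scores. Marked nuclei were kept in the main counts and removed in an alternative.

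Genes that the rule did not use bore out the granule class. The summed level of 15 other granule genes, among them Calb1 (calbindin) and Dock10, was 8785 to 10943 CPM in the program nuclei of the 13 mice (CPM, the count per 1000000 UMIs of the same nuclei). In nuclei chosen by interneuron markers it was 1948 to 2636, and in those chosen by CA1 markers 1284 to 1640. It was higher, at 3207 to 4503, in nuclei chosen by oligodendrocyte markers, though still below the program nuclei. No gene of the list was at 0 over the program nuclei of all mice together. Markers of other cells were present at uneven levels. Endothelial markers (4 genes) summed to 1.62 to 14.5 CPM in program nuclei, and interneuron markers (5 genes) to 68.8 to 110.6, against 8859 to 12683 in the interneuron nuclei. Oligodendrocyte markers (6 genes) summed to 286 to 554, against 6402 to 13165 in nuclei chosen by oligodendrocyte markers. They summed to 277 to 739 in other granule nuclei, 44.7 to 165.9 in interneuron nuclei and 62.0 to 164 in CA1 nuclei. Astrocyte markers (6 genes) summed to 197 to 348, microglial markers (5 genes) to 37.1 to 243.5 and CA3 markers (5 genes) to 263 to 473.

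The name of the program fits its members only in part. By the rule, each has 2 UMIs or more of the 4 genes, yet 43.1% of program nuclei held a Dsp UMI and 42.9% a Lct UMI. Npnt was detected in 54.3% and Stra6 in 59.7%. The most frequent combination was Npnt with Stra6 and neither of the others, in 1259 nuclei (12.8%). A total of 2971 nuclei (30.2%) had no Dsp and no Lct UMI. One of the 4 genes was detected in 2455 nuclei (24.9%), 2 genes in 5270 (53.5%), 3 genes in 1812 (18.4%) and all 4 in 315 (3.20%).

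The threshold cut a continuous range of counts. Granule nuclei just outside it, with 1 such UMI, numbered 7186 and had a median of 6663 UMIs in all, and those just inside, with 2, numbered 4329 with a median of 7180. The 13934 nuclei with none had a median of 5980 UMIs, and the 803 nuclei with 6 or more had 10056. Program nuclei thus had more UMIs (median 7832) than other granule nuclei (6210). Depth rose with each step of the count.

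The 4 genes were detected more often in granule nuclei than in interneuron and CA1 nuclei. In all granule nuclei, Dsp had a UMI in 17.9%, Lct in 18.7%, Npnt in 23.9% and Stra6 in 26.3%. In 4430 interneuron nuclei, which were deeper (median 8647.5 UMIs), the shares were 0.293%, 0.655%, 1.60% and 0.429%. In 8416 CA1 nuclei (median 9782.5 UMIs) they were 0.368%, 4.82%, 1.20% and 0.856%. With every nucleus thinned to 3000 UMIs, granule shares were 8.67% for Dsp, 9.06% for Lct, 12.02% for Npnt and 13.9% for Stra6, against 0.0459%, 0.299%, 0.505% and 0.161% in interneuron nuclei. At least 2 program UMIs were found in 0.339% of interneuron nuclei and 1.19% of CA1 nuclei.

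Pairs of the 4 genes were found together more often, in the median over mice, than their separate frequencies give. At 3000 UMIs per nucleus, Dsp and Lct were both detected 1.57 times as often as the product of their shares (median over mice, range 0.91 to 1.95). This ratio was above 1 in 12 of 13 mice. Dsp with Npnt gave 1.50 (1.16 to 2.05, above 1 in 13 of 13) and Lct with Npnt 1.37 (13 of 13). Pairs with Stra6 were nearer to 1, at 1.18 with Dsp (13 of 13), 1.22 with Npnt (11 of 13) and 1.12 with Lct (12 of 13). Among the 6 pairs, the 3 without Stra6 had the 3 highest medians. These ratios are a description, with no test.

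At 3000 UMIs per nucleus the mean share of granule nuclei in the program was highest in young mice, but the difference did not pass the test, and at 2000 UMIs old ad libitum mice had the higher mean (6.99% against 6.17%, exact permutation test, adjusted p 0.45). With each nucleus thinned to 3000 UMIs and both parts of the rule applied again, young mice had shares of 13.6%, 12.04% and 14.0%. Old mice fed ad libitum had 10.3%, 11.9% and 10.8%. Acute restriction gave 9.26%, 12.6% and 8.73%, and long-term restriction 13.3%, 10.6%, 11.2% and 10.7%. Young and old ad libitum mice did not overlap, while both restricted groups overlapped the old ad libitum range.

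Group means were 13.2% ± 1.03 (SD, n = 3) in young mice, 11.01% ± 0.856 (n = 3) in old ad libitum mice, 10.2% ± 2.09 (n = 3) under acute and 11.4% ± 1.26 (n = 4) under long-term restriction. Old minus young ad libitum was -2.20 percentage points, with an exact two-sided permutation p of 0.1, the smallest that 3 against 3 mice allow, and 0.262 after adjustment over 6 tests. The 10 old mice together were 2.27 points lower than the 3 young ones, with an exact permutation p of 0.0315 and an adjusted p of 0.189. Over the 4 groups, F was 2.54 (exact permutation p 0.131, adjusted p 0.262), and without acute mouse 2 it was 7.92 (exact permutation p 0.0072, adjusted p 0.0432). Long-term restriction differed from old ad libitum by 0.437 points (exact permutation p 0.686) and acute restriction by -0.811 points (exact permutation p 0.5). Counting error was of the same size as these differences. The smallest library, old ad libitum number 1, gave 48 of 467 nuclei (95% Wilson interval 7.84% to 13.4%), and the one with most nuclei, acute number 3, gave 244 of 2795 (7.74% to 9.83%).

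The direction of this share turned with depth. Without thinning, young mice had 38.3%, 20.2% and 34.5% and old ad libitum mice 49.8%, 35.8% and 33.9%, so that the old mean was 8.87 points higher. At 2000 UMIs the old mean was 0.820 points higher, and at 5000 UMIs 2.97 points lower. The median UMIs per program nucleus were 4896 to 7639 in young and 8409 to 13680.5 in old ad libitum mice, with no overlap between the groups. No stable direction with age can therefore be given.

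**Figure D1:**
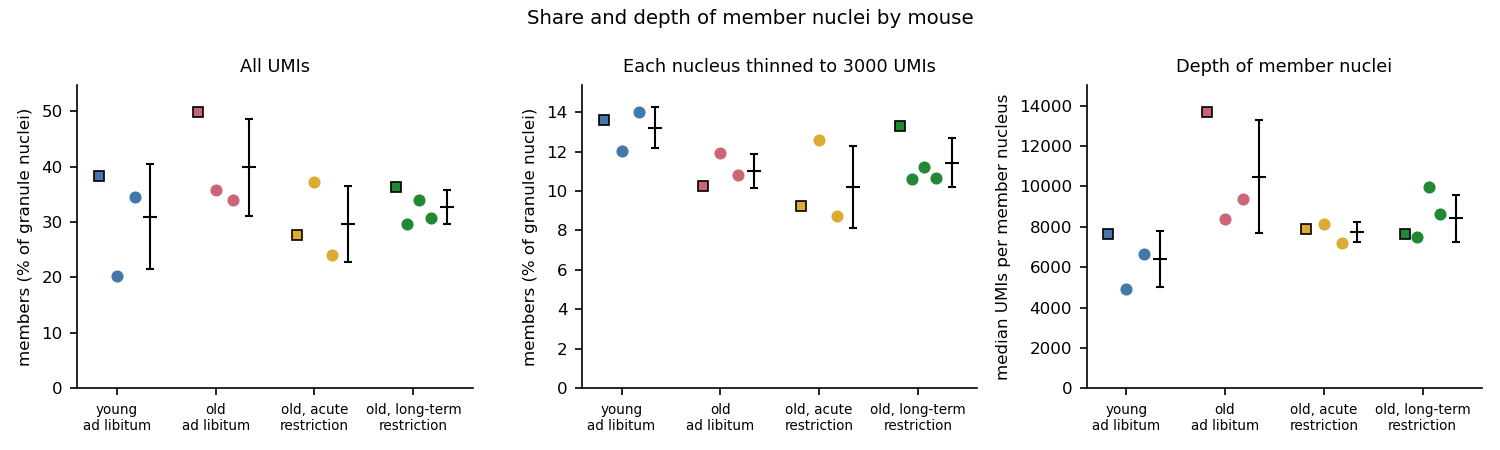
Share of granule nuclei in the program with all UMIs (left) and with each nucleus thinned to 3000 UMIs (middle), and median UMIs per program nucleus (right), per mouse in each group. Points are mice, squares mark libraries numbered 1, and bars show the mean and SD. Old ad libitum mice are above the young mean at left, below all 3 young mice in the middle, and deeper than all young mice at right.

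Summed over all granule nuclei, program or not, the 4 genes can be compared between groups without the threshold on their own UMIs choosing the nuclei. The granule rule also counts UMIs, so depth still bears on which nuclei are summed. In old ad libitum mouse 1, thinning to 3000 UMIs took 626 granule nuclei to 467, with 1 left out as too shallow. None of the 4 genes was called in any of the 4 comparisons by edgeR's quasi-likelihood test with Benjamini-Hochberg adjustment over all genes. In this sum 231 of 16918 genes (1.37%) were called with age, 170 higher (1%) and 61 lower (0.361%). This count ran from 16 without young mouse 2 to 1456 without young mouse 1, where 588 were higher and 868 lower. It was 2 with the median UMIs per nucleus as a covariate, and 38 with the trend of gene length removed per library. The balance also turned with a term for the libraries numbered 1 (1073 higher, 1607 lower), without those libraries (676 and 1681) and with the replicate block (711 and 931). Fewer expressing nuclei and less RNA per nucleus cannot be told apart in such sums.

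Desmoplakin transcripts were lower in old mice by value. Dsp stood at 50.2, 40.3 and 43.4 CPM in young mice and at 35.5, 26.4 and 22.9 in old ad libitum mice. It stood at 30.4, 32.6 and 24.4 under acute and 44.8, 31.6, 24.0 and 26.1 under long-term restriction. All old ad libitum mice were below all young mice in CPM, but the groups overlapped on edgeR's TMM-scaled log2 values. The library numbered 1 was the highest of its group except under acute restriction. The log2 fold change with age was -0.54 ± 0.24 (SE, edgeR adjusted p 0.187). It passed by edgeR with a term for the libraries numbered 1 (-0.54, adjusted p 0.0291), where 2680 of 16918 genes were called. It also passed in the libraries with other numbers alone (-0.59, adjusted p 0.0401), where 2357 of 17149 were called.

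The retinol receptor gene moved the other way by value. Stra6 stood at 52.1, 51.0 and 63.6 CPM in young mice and at 70.2, 82.4 and 67.9 in old ad libitum mice, without overlap. This is a log2 difference of 0.54 ± 0.26 (SE) with an edgeR adjusted p of 0.220. Acute restriction gave 23.5, 61.5 and 40.8, all below the old ad libitum mice, with a log2 fold change of -0.81 ± 0.26 (edgeR unadjusted p 0.00964, adjusted p 0.732). It was -0.53 without acute mouse 1 and -1.21 without acute mouse 2. On edgeR's TMM-scaled values, groups did not overlap in 26.5% of all genes with age and in 12.8% under acute restriction. Long-term restriction gave 56.9, 55.6, 68.4 and 58.6, and its highest mouse was above the lowest old ad libitum mouse.

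Lactase and nephronectin transcripts differed less. Lct ranged from 26.2 to 42.3 CPM in young and from 24.8 to 32.8 in old ad libitum mice (log2 fold change -0.13 ± 0.23, SE, edgeR adjusted p 0.742). Under acute restriction it ranged from 27.3 to 50.4 and under long-term restriction from 25.3 to 35.7. Npnt ranged from 51.1 to 61.6 in young and from 39.4 to 50.0 in old ad libitum mice, which lie just below, though they overlap on TMM-scaled values (-0.19 ± 0.21, SE, edgeR adjusted p 0.574). It ranged from 40.8 to 53.3 under acute and from 26.9 to 53.6 under long-term restriction.

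The ratio of Stra6 to Dsp compares both genes within a library. There were 1.04, 1.26 and 1.47 Stra6 UMIs per Dsp UMI in young granule nuclei and 1.98, 3.13 and 2.97 in old ad libitum ones. Acute restriction gave 0.773, 1.88 and 1.67, and long-term restriction 1.27, 1.76, 2.84 and 2.25. In each group the library numbered 1 had the lowest ratio. Old ad libitum mice did not overlap young ones or acutely restricted ones. The ratio was formed after both genes had been seen and was not tested.

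**Figure D2:**
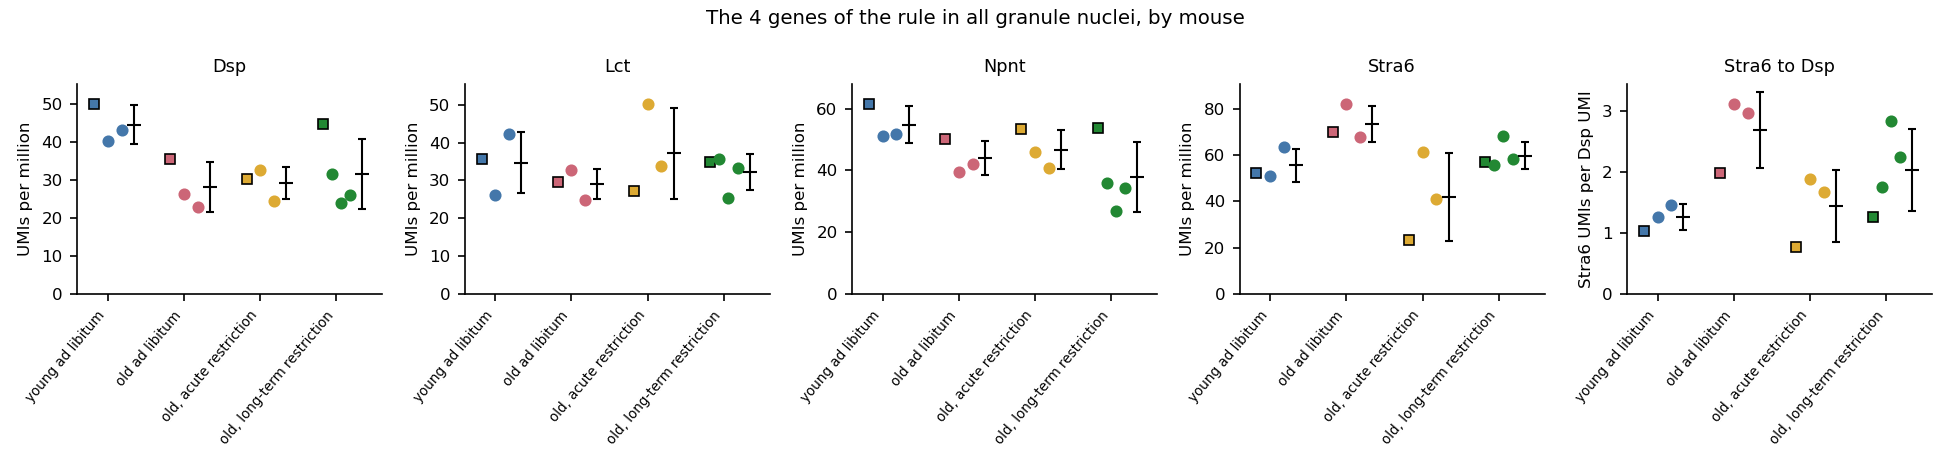
Levels of Dsp, Lct, Npnt and Stra6 in CPM over all granule nuclei, and Stra6 UMIs per Dsp UMI, per mouse in each group. Points are mice, squares mark libraries numbered 1, and bars show the mean and SD. Dsp is highest in young mice and Stra6 in old ad libitum mice, and the ratio is lowest in the library numbered 1 of each group.

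Program nuclei differed from their neighbours in many genes besides the 4 of the rule. Each program nucleus was set beside the unused other granule nucleus of the same mouse that was nearest in UMIs, which gave 9852 pairs, 95% of them within 0.167 on the log2 scale of UMIs. In the old ad libitum library numbered 1 too few deep nuclei were left, and the matched median was 0.787 of that of its program nuclei. Of 10251 genes with at least 10 UMIs in each of the 26 sums, 1175 (11.5%) differed in the same direction in 13 of 13 mice. Of these, 537 (5.24%) were higher and 638 (6.22%) lower in program nuclei. These are descriptions, since the same nuclei were chosen by their counts, and no test was made.

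Ccdc33, a coiled-coil gene, had a log2 ratio between 0.72 and 1.67 over the mice (median 1.03). Slc26a10, of the anion transporter family, lay between 0.50 and 1.44 (median 0.87). Ogn, which encodes the matrix proteoglycan osteoglycin, lay between 0.20 and 1.97 (median 0.89). Inf2, a formin that acts on actin and microtubules, had a mean ratio of 0.92 ± 0.28 (SD, n = 13), and Ryr1, the ryanodine receptor calcium release channel of muscle, 0.92 ± 0.34. Jag1, a Notch ligand, had 0.85 ± 0.28, and Capn3, a calcium-dependent protease, 0.83 ± 0.33. Nrip3, Gxylt2, Hectd2, Il16 and Rhbdl3 had mean ratios from 0.82 to 0.90. Most of these are lowly expressed: Ccdc33 averaged 17.5 CPM in program nuclei and 8.11 in matched nuclei, and 0.12 in interneuron nuclei. Hectd2, a ubiquitin ligase gene, was the most abundant of them at 169 against 94.9.

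The 8 genes lowest in program nuclei had mean log2 ratios of -1.51 or below. Cdh4, which encodes R-cadherin, had a log2 ratio between -2.99 and -0.84 (median -1.70), and Sema3a, a secreted guidance factor, one between -3.12 and -0.68 (median -1.54). Plcb4, a phospholipase C, had a mean of -1.69 ± 0.485 (SD, n = 13). The paralogous sorting receptors Sorcs3 and Sorcs1 had means of -1.61 ± 0.21 and -1.55 ± 0.33. Sgcz, zeta-sarcoglycan, had -1.52 ± 0.27, and the uncharacterised genes Gm30094 and B130024G19Rik had -1.60 and -1.51. Several of them are also interneuron genes. Sgcz averaged 191 CPM in program nuclei, 545 in matched granule nuclei and 2823 in interneuron nuclei, and Plcb4 averaged 8.56, 28.2 and 191. The part of admixed RNA from other cells in these ratios was not tested.

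**Figure D3:**
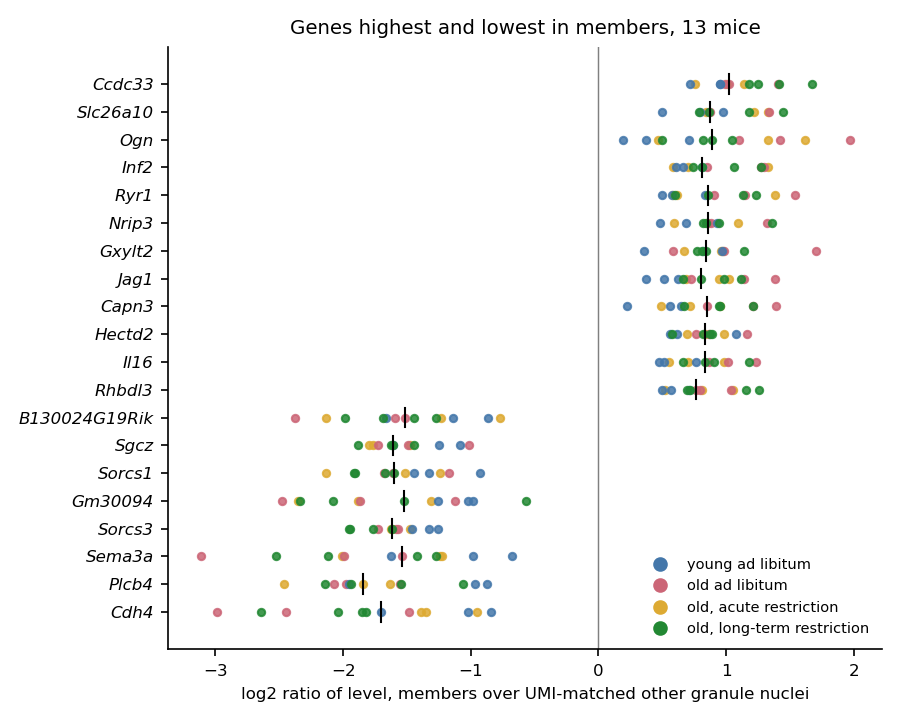
Log2 ratio of the level in program nuclei to that in UMI-matched other granule nuclei of the same mouse, for the 12 highest and 8 lowest genes outside the rule. Each point is a mouse, coloured by group, and black bars mark the median. All 13 mice lie on the same side of 0 for each gene shown, because the genes were chosen so.

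Mature granule genes outside the rule leaned higher in program nuclei. Of 14 measured identity genes, 8 were higher and 2 lower in all mice, against 5.24% and 6.22% of all genes, with a median ratio of 0.16 against -0.02 for all genes. Fam163b had 0.49, Ahcyl2 0.47 and Calb1 0.45 in the mean. Of 5 measured genes listed for immature granule neurons, 1 was higher and 1 lower in all mice, with a median of -0.19, beside the same shares of all genes. These were Neurod2, a neuronal transcription factor, at 0.59 and Dcx, doublecortin, at -0.59. The 6 granule genes of the rule leaned the other way, with 1 higher and 3 lower in all mice and a median of -0.18. Prox1 had 0.18, C1ql2 -0.39 and Trpc6, a cation channel, -0.71.

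Genes known for graded expression along the long axis of the dentate gyrus were mostly lower. Of 9 measured, 6 were lower in all mice and 1 was higher, against 6.22% and 5.24% of all genes, with a median ratio of -0.38. Grp, a neuropeptide, lay between -2.57 and -0.78, and Nr2f2, a nuclear receptor, between -1.99 and -0.11. Efnb2 and Gsg1l had means of -0.70 and -0.52, while Epha7, an ephrin receptor, had 0.35. The rule itself keeps nuclei with 2 or more UMIs of Trhr, Lgr6 and Gmnc out of both groups.

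Of 7 activity-dependent genes with enough UMIs, 4 were lower in all mice, against 6.22% of all genes, and none was higher, with a median of -0.54. Nr4a3, an orphan nuclear receptor induced by activity, lay between -2.25 and -0.39, and Bdnf, the neurotrophin, between -1.09 and -0.32. Nr4a2 and Sorcs3 were the others lower in all mice, while Homer1, Junb and Inhba had both signs. The rest of the 17 genes listed had too few UMIs.

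Receptor lists were split. Of 21 glutamate receptor genes, 8 were higher and 7 lower in all mice, against 5.24% and 6.22% of all genes, the same shares as for the lists that follow. The median was -0.03. The AMPA subunit Gria1 and the NMDA subunit Grin2a had 0.27 and 0.26, and the metabotropic receptor Grm8 had -0.68. Of 11 GABA-A receptor genes, 2 were higher and 4 lower. Gabra5, the subunit of extrasynaptic receptors, had 0.40 and Gabra3 -0.65. Of 8 glucocorticoid-response genes 2 were higher and none lower: Nr3c2, the mineralocorticoid receptor, had 0.47 and Zbtb16, a steroid-induced transcription factor, 0.30.

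Molecular partners of the 4 genes did not follow them as a group. Of 14 desmosome genes, 4 had enough UMIs. Pkp2, plakophilin-2, had 0.28 and was higher in all mice, Ppl, periplakin, had -0.95 and was lower in all, and Pkp4 and Dsg2 had both signs. Of 12 genes around nephronectin and its integrin, 5 were measured and 2 were lower in all mice, against 6.22% of all genes. Itga8, the alpha 8 chain, lay between -0.30 and 0.03. Of 19 retinoid genes 4 were measured, and 1, Rarg, was lower in all mice.

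Between old and young ad libitum mice, 183 of 14509 genes were called in program nuclei (1.26%), 132 of them higher (0.91%) and 51 lower (0.352%) in old mice (edgeR quasi-likelihood, adjusted p below 0.05). This balance turned with a term for the libraries numbered 1 (770 higher, 1161 lower) and with the replicate block (671 and 811). Depth moved with age. With depth as a covariate 3 genes were called, while all 183 kept their sign and 137 had a log2 fold change within 1.5 times of that without it. The comparison asks how the program nuclei of old mice differ from those of young mice on the same diet. For all 183, the 3 old and 3 young mice did not overlap, against 26.5% of all genes tested. A call itself favours genes without overlap, so this adds no support. Nothing says that mice shared a litter or a day. The p-values set each difference against the spread between these mice and their libraries. In the main fit that spread includes the shared deviation of the libraries numbered 1. All 183 had the same sign in other granule nuclei, where 88 of them were also called, out of 288 of 15772 genes (1.83%) called there, 206 higher (1.31%) and 82 lower (0.52%). Dsp itself is 1 of the 51, at 99.7, 121 and 91.1 CPM in young and 59.2, 53.9 and 51.0 in old ad libitum program nuclei. The rule counts UMIs of Dsp, so its level in program nuclei depends on the rule and on depth per nucleus. It is therefore given as values, and its call is not read as a result.

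Grm8 and Camk2d had the lowest adjusted p of the rising genes named. Grm8, the presynaptic metabotropic glutamate receptor 8 (chr6:27275119-28135178), stood at 51.2, 68.9 and 47.3 CPM in young and 159, 158 and 179 in old ad libitum mice. Old mice were above young ones without exception, with a log2 fold change of 1.72 ± 0.13 (SE, edgeR adjusted p 3.23e-06). Camk2d, the delta subunit of the calcium-dependent kinase CaMKII (chr3:126596302-126846326), rose from 60.9, 65.0 and 63.0 to 142, 156 and 160. It rose by 1.41 on the log2 scale (SE 0.10, edgeR adjusted p 3.23e-06), and another annotated gene overlaps it.

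Nrxn3 and Nrg1 are far more abundant. Nrxn3, the presynaptic adhesion molecule neurexin-3 (chr12:88722876-90334935), rose from 967, 810 and 1017 to 1880, 2058 and 1980 CPM. It rose by 1.21 on the log2 scale (SE 0.12, edgeR adjusted p 0.000161). Nrg1, the ErbB ligand neuregulin-1 (chr8:31814551-32884029), rose from 629, 590 and 575 to 1528, 1569 and 1944, a log2 fold change of 1.62 ± 0.16 (SE, edgeR adjusted p 0.000161). Both groups of mice were well apart for these genes.

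Other genes that rose include Cobl, an actin nucleator, from 12.8 to 14.2 CPM in young and 33.3 to 37.2 in old mice. Cpa6, a secreted carboxypeptidase, rose by 1.47 on the log2 scale, and Dchs2, a cadherin-related gene, by 1.69 from 2.6 to 3.9 up to 9.0 to 10.1 CPM. Gm34567 and Gm48530, both uncharacterised, rose by 0.79 and 2.06. Sorcs3, which was low in program nuclei against their neighbours, rose with age by 0.98 (edgeR adjusted p 0.00345). Of the 131 rising genes with a ratio to matched nuclei, 89 were lower in program nuclei, against 56.5% of all genes, and of 45 falling genes with such a ratio 17 were lower.

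Genes that fell include an autophagy, a mitochondrial and a vesicle trafficking gene. Gabarapl2, an ATG8-family autophagy protein, stood at 43.7, 54.3 and 41.4 CPM in young and 27.9, 23.9 and 24.8 in old ad libitum mice, and fell by 0.73 on the log2 scale (SE 0.14, edgeR adjusted p 0.0233). Tmem126a, a mitochondrial inner membrane protein, fell by 0.97, Exoc7, an exocyst subunit, by 0.76 and Rbis, a ribosome biogenesis factor, by 0.89. Cebpb, a stress-responsive transcription factor, stood at 29.0, 27.2 and 20.0 in young and 12.1, 9.2 and 11.97 in old mice and fell by 1.08 (edgeR adjusted p 0.0282).

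Several falling loci are uncharacterised. 1700030F04Rik fell by 1.45 and Gm5087 by 0.68, and 0610009B22Rik fell by 1.35 at levels of 6.5 to 10.4 in young and 3.1 to 3.3 in old mice. 8030451O07Rik stood at 1.3, 11.97 and 6.4 CPM in young mice and 0.0, 0.2 and 0.3 in old ones, too few to size its change. Cenpp, a centromere protein gene, fell by 0.65, but 6 other annotated genes overlap it. Of the 20 genes named from this comparison, 7 overlap another gene.

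**Figure D4:**
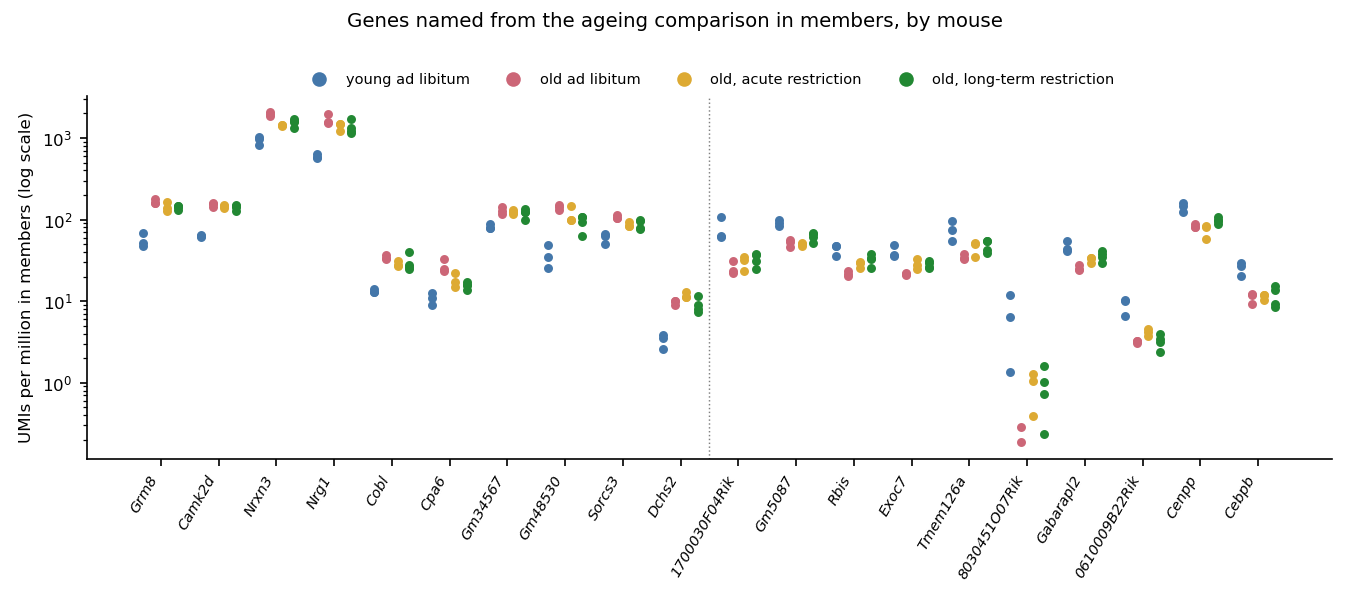
Levels in program nuclei (CPM, log scale) of the 10 rising and 10 falling genes named from the ageing comparison, left and right of the dotted line, with 1 point per mouse and colours for the 4 groups. Old and young ad libitum mice do not overlap for any of the 20 genes, because the genes were chosen so. The old ad libitum library at 0 for 8030451O07Rik cannot be drawn on a log axis.

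Gene lists moved as follows with age, beside a median log2 fold change of -0.03 over all genes, of which 0.91% rose and 0.352% fell. Of 22 glutamate receptor genes 3 rose and none fell, with a median of 0.34. They were Grm8, Gria1 (0.51, edgeR adjusted p 0.0497) and Grik4, a kainate receptor subunit (0.62, adjusted p 0.0366). Of 17 potassium channel genes 2 rose, Kcnq3, a subunit of the M-current channel (0.60), and Kcnma1, the BK channel (0.62), with a median of 0.36. Of 15 granule identity genes 3 rose, Dock10 (0.49), Tanc1 (0.59) and Maml2 (0.65), with a median of 0.31. Of 17 mossy fibre release genes Unc13c, a vesicle priming factor, was the one that rose, by 1.31 from 31.2 to 42.4 up to 78.3 to 81.8 CPM.

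The counts below stand beside the same shares, 0.91% of all genes higher and 0.352% lower. Clock genes Hlf and Rora rose by 0.56 and 0.63, 2 of 17, and the steroid-induced Zbtb16 by 0.58, 1 of 14 glucocorticoid-response genes. Sorcs3 was the 1 of 14 activity genes that rose, and the list had a median of -0.30 with 8 of 14 negative. No GABA-A receptor gene of 12 passed, with a median of 0.25, nor any of 9 dorsoventral, 6 desmosome, 9 retinoid or 9 nephronectin genes. Among 8 heat shock genes Hspe1, a mitochondrial chaperonin, fell by 1.15 (edgeR adjusted p 0.0400), with a list median of -0.91. Oxidative phosphorylation genes had a median of -0.62 with 14 of 16 negative, and none passed.

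Depth and gene length moved with age in the same nuclei. The median annotated span was 233 kb for the rising genes, 9.96 kb for the falling ones and 27.2 kb for all genes tested. With the median UMIs per program nucleus as a covariate, 3 genes were called, Grm8 (log2 fold change 1.87, edgeR adjusted p 0.000411), Camk2d (1.36, adjusted p 0.00140) and Nrxn3 (1.09, adjusted p 0.0467). Over the 183 genes the median size of the log2 fold change went from 0.66 to 0.54 and the median SE from 0.13 to 0.18, and in 46 the fold change shrank by more than 1.5 times. Gm48530 had 2.05 in place of 2.06 and Gabarapl2 -0.81 in place of -0.73, while Sorcs3 had 0.76 in place of 0.98. With the trend of gene length removed per library, 34 genes were called, 28 of them among the 183. The list medians then shrank to 0.05 for glutamate receptor genes, 0.04 for potassium channel genes and 0.03 for granule identity genes, and Grm8 was the glutamate receptor gene still called. The oxidative phosphorylation median became -0.29. Age and depth cannot be told apart, because the depth of the 2 ad libitum groups did not overlap.

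Markers of other cells moved with age unevenly. Summed microglial markers (5 genes) in program nuclei were 49.6 to 243.5 CPM in young and 37.4 to 60.7 in old ad libitum mice. Oligodendrocyte markers were 286 to 382 and 356 to 471, and CA3 markers (5 genes) 263 to 375 and 418 to 427. Most of the CA3 sum came from Cpne4, at 227 to 342 CPM in young and 387 to 390 in old ad libitum mice. Over all mice together no marker gene was at 0, but the endothelial marker Flt1 had 0 UMIs in the program nuclei of young mouse 2. Their part in the ageing calls was not tested.

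The number of ageing calls rested on single libraries. It was 32, 24 and 24 without old ad libitum mouse 1, 2 or 4, and 873, 39 and 330 without young mouse 1, 2 or 3. It was 708 without long-term mouse 3, 99 without long-term mouse 4, and 102 and 105 without acute mouse 2 or 3. These mice are outside the comparison but share its fit, with its gene filter, scaling and estimate of spread. Taking account of the libraries numbered 1 raised it to 1931 as a term, and to 1451 when they were left out. The balance then turned: 770 were higher and 1161 lower with the term, 355 higher and 1096 lower without those libraries, and 328 higher and 545 lower without young mouse 1. With that term 7 of 16 oxidative phosphorylation genes and 3 of 8 heat shock genes fell, against 8% of all genes, and 8 of 22 glutamate receptor genes rose, against 5.31%.

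Neither form of dietary restriction changed a gene in program nuclei by the main test. The comparisons ask how restricted old mice differ from old mice fed ad libitum, and both share the same 3 old ad libitum libraries with each other and with the ageing comparison. Of 14509 genes, none was called for long-term restriction (0%), acute restriction or long-term minus acute restriction. At an unadjusted p below 0.05 there were 658, 730 and 381 genes. In this fit that is about as many of 14509 as this threshold alone lets pass, or fewer. The counts depended on the fit. They were 1142, 1245 and 576 with a term for the libraries numbered 1, and 1061, 1037 and 485 with the replicate block. With depth as a covariate they were 662, 573 and 349. DESeq2 called 3, 12 and 0 genes, and edgeR with a term for the libraries numbered 1 called 6, 19 and 0. Absence of calls does not show that the groups are alike.

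Ageing genes gave these values under restriction. They were chosen because the same old ad libitum mice stood apart from young ones. That choice alone favours restricted values nearer to those of young mice. Nrxn3 stood at 1632, 1697, 1585 and 1313 CPM under long-term and 1391, 1453 and 1454.5 under acute restriction, all below the old ad libitum mice at 1880 to 2058. Its log2 differences were -0.34 (edgeR adjusted p 0.999) and -0.47 (adjusted p 0.466). Cpa6 stood at 13.6 to 17.1 under long-term and 14.7 to 22.1 under acute restriction, below the old ad libitum range of 23.7 to 32.6. Its differences were -0.79 (adjusted p 0.471) and -0.59 (adjusted p 0.671) by edgeR.

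Values on the other side were seen for Rbis, at 25.6 to 37.7 under long-term and 25.3 to 29.8 under acute restriction, above 20.5 to 23.5 in old ad libitum mice. Camk2d stood at 128 to 151 under long-term and 140 to 151 under acute restriction, which overlaps 142 to 160 in old ad libitum mice. Grm8 stood at 133 to 147 and 129 to 166, against 158 to 179. Groups did not overlap in 6.78% of all genes for long-term and 13.4% for acute restriction, but those genes were not chosen through the old ad libitum mice.

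Whether age changed program nuclei otherwise than other granule nuclei was tested with both sums of each mouse in 1 model. The difference between old and young differed in 61 of 15662 genes (0.389%) by edgeR quasi-likelihood with mouse as a block, adjusted p below 0.05. It was higher in program than in other granule nuclei for 51 (0.326%) and lower for 10 (0.0638%). Higher and lower are thus relative to other granule nuclei, and need not be a rise or fall in program nuclei. The count was 15 with other granule nuclei matched on UMIs, 5 higher and 10 lower. It was 1, the bicarbonate transporter gene Slc4a4 (0.27, edgeR adjusted p 0.0391), when both groups were chosen after thinning every nucleus to 3000 UMIs. That choice keeps fewer program nuclei (138 in place of 575 in acute mouse 1), and their sums use all their UMIs. Program nuclei that fell short of 2 program UMIs after thinning were placed among the other nuclei. The loss of calls therefore cannot decide whether the differences hold. Of the 61 genes, 56 were then found with the same sign. Among the named genes, only Car12 (-0.48 in place of -0.36) and Shroom4 (-0.76 in place of -0.60) grew. Neither passed the test (edgeR adjusted p 0.234 and 0.654). All other named genes shrank, as Gfra2 (0.16 in place of 0.74) and Matn2 (0.14 in place of 0.53), except Pappa, which turned. Without young mouse 2, the shallowest, the count of genes called was also 1, the uncharacterised 4930509J09Rik. Without young mouse 3 it was 11, and without old ad libitum mouse 1, the deepest, it was 23.

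Averaged over the 13 mice, 48 of the 51 higher genes were above other granule nuclei and 10 of the 10 lower ones below, while 46.8% of all genes were above. Old mice are 10 of the 13, so the sign of this average is not independent of the call. Rasgrf2, a Ras exchange factor, had log2 differences between program and other nuclei of 0.51, 0.50 and 0.56 in young and 0.95, 0.86 and 0.76 in old ad libitum mice. The difference was 0.32 ± 0.06 (SE, edgeR adjusted p 0.00336), and 0.21 with an adjusted p of 0.760 after thinning. Capn3 had 0.54, 0.48 and 0.54 in young and 1.43, 1.37 and 1.20 in old mice. It did not keep its call with matched nuclei (0.66, edgeR adjusted p 0.172) or after thinning (0.46, adjusted p 0.947). No gene named from this test was called with age in program nuclei alone. The log2 fold change of Capn3 with age was -0.11 in program and -0.89 in other granule nuclei. That of 4930509J09Rik, counted as higher, was -1.57 and -1.99. Egfem1 instead moved more in program nuclei, with 0.40 and 0.11.

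On the other side, Ptprm, a receptor phosphatase of adhesion, had -0.90, -0.25 and -0.79 in young and -1.58, -1.89 and -2.32 in old ad libitum mice. Bach2, a transcriptional repressor, had -0.64, -0.46 and -0.60 against -1.53, -1.20 and -1.10. The log2 fold change with age was 0.63 in program and 1.87 in other granule nuclei for Ptprm, and -0.0023 and 0.76 for Bach2. With matched nuclei, 11 of the 20 named genes kept their call and 9 lost it. Bach2 kept its call (edgeR, -0.78, adjusted p 0.000673), as did Ptprm (-1.06, adjusted p 0.0251). After thinning neither passed (edgeR, -0.50 with adjusted p 0.833 for Bach2, and -0.65 for Ptprm). The other genes named by the same rule were 4930509J09Rik, Egfem1, Gm20754, Matn2, Dgkh, Gfra2, A330008L17Rik and Lgi1 among the higher, and Lrrc4c, Trf, Pappa, Car12, Shroom4, Hba-a1, Zfp536 and Itgb8 among the lower.

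**Figure D5:**
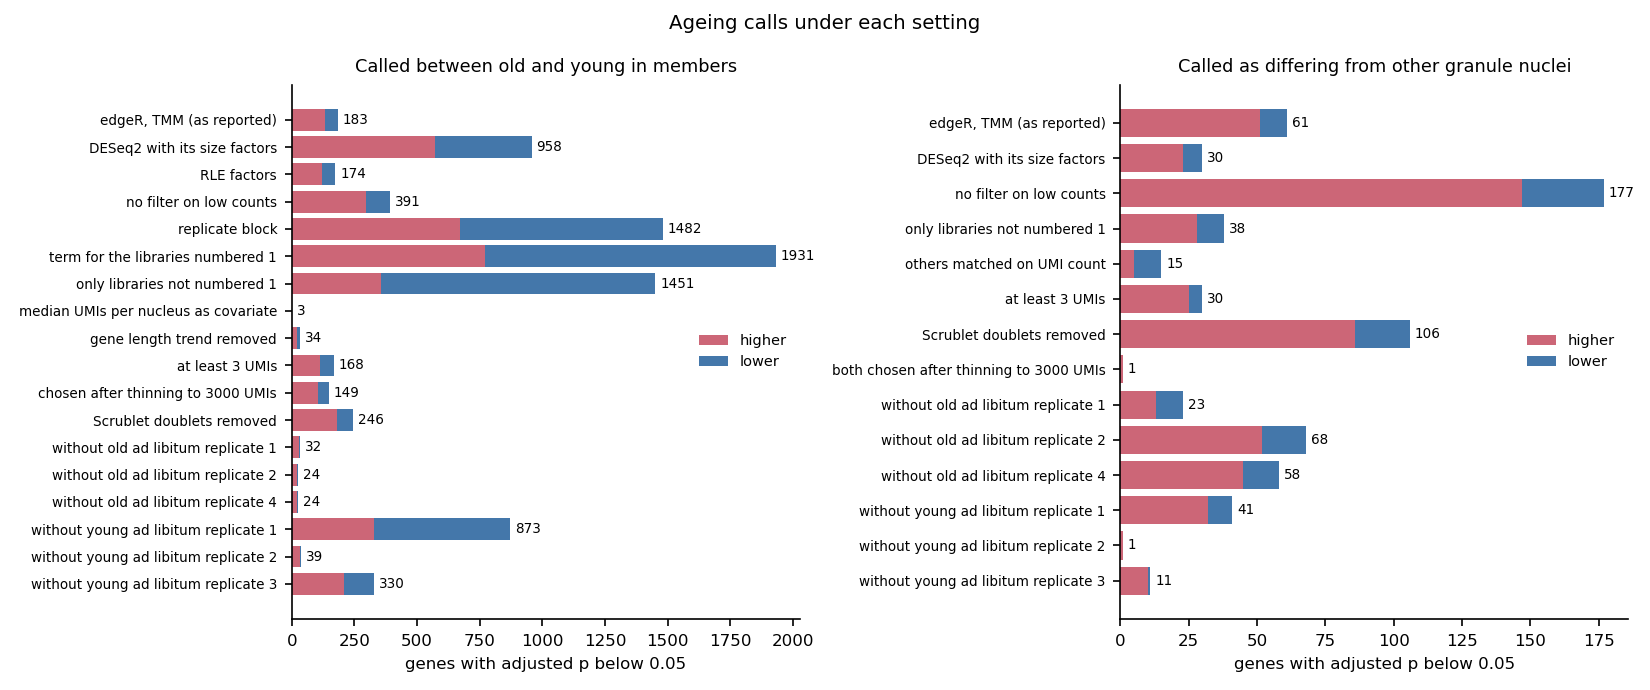
Number of genes called between old and young ad libitum mice in program nuclei (left) and as differing in that change from other granule nuclei (right), under each setting, with higher genes in red and lower in blue. The count at left runs from 3 with depth as a covariate to 1931 with a term for the libraries numbered 1, and the count at right from 177 without a filter on low counts down to 1 after thinning.

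Restriction gave few such differences. For long-term restriction 1 gene of 15662 (0.00638%) was called, Slc8a1, the sodium-calcium exchanger. Its log2 change was lower by 0.33 in program than in other granule nuclei (edgeR adjusted p 0.0197), at -0.15 against 0.21. For acute restriction 3 genes (0.0192%) were called. Zfp536, a zinc finger repressor, had 0.38 (edgeR adjusted p 0.00141), Shroom4, an actin regulator, 0.67 (adjusted p 0.0313) and Hba-a1, a haemoglobin chain of red blood cells, 1.49 (adjusted p 0.0313). Hba-a1 had as few as 1 UMI in the program nuclei of a mouse. These 3 genes were also called lower in the same test with age. Both comparisons use the same 3 old ad libitum libraries, so the acute calls are not separate from the ageing calls. Shroom4 had program minus other differences of -0.71, -0.49 and -0.28 in old ad libitum mice. It had 0.05, 0.25 and 0.13 in young and 0.31, 0.07 and 0.21 in acutely restricted mice. None of the 4 was called after thinning to 3000 UMIs, where Zfp536 had 0.19, Hba-a1 0.79 and Slc8a1 -0.43, and Shroom4 turned to -0.0073. Thinning also moves program nuclei into the other group, so this loss cannot decide about the calls. For long-term restriction the genes called changed with the setting, and those named next were chosen after their values were seen. Against nuclei matched on UMIs, Slc8a1 had -0.38 without passing and the 1 gene called was Gli2 (2.75, edgeR adjusted p 0.0317). With doublets removed Serpini1, Gm31816 and Htr2c were called, all lower, and after thinning Kctd8 and Sorcs1, lower, and Cntnap2, higher. For acute restriction, matched nuclei kept Zfp536 and Shroom4 and added Gm38505 and Cped1, both lower.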

How the data were processed

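Nuclei of 13 hippocampi were sequenced by droplet methods, 1 library per mouse. The deposited matrices hold raw UMI counts of 32285 genes per barcode. They were made with Cell Ranger 4.0.0 against mm10, per the submitters' processing notes. Intron and strand counting, ambient RNA correction and doublet removal are not given in the sources used here. The members and gene lists were chosen with earlier results of these data known.

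Counts were summed per mouse over program, other or all granule nuclei. They were tested with edgeR 4.0.16 (quasi-likelihood, TMM, filterByExpr, robust; R 4.3.3) over all 13 mice, with Benjamini-Hochberg adjusted p below 0.05. DESeq2 1.42.0 was an alternative. Levels are CPM, counts scaled to 1000000 UMIs. Overlap of groups was judged on edgeR's log2 values with a prior count of 2. For shares, nuclei under 3000 UMIs were left out and the others thinned to 3000, and logit shares were compared by exact two-sided permutation. Intervals are Wilson 95% and cover counting error only. Library totals were 38546292 to 80538090 UMIs. Spans come from GENCODE M21 (32235 of 32285 genes matched). Scripts were tested on simulated data.

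Named genes are those called and not overlapping, the first 10 per direction by adjusted p, or all where 5 or fewer were called. Against matched nuclei they are the 12 highest and 8 lowest of the same sign in all mice.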

Additional observations from a re-analysis of the deposited data

Results flagged for a closer look

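The change between young and old ad libitum mice differed between program nuclei and other granule nuclei for 61 genes. The change under long-term restriction differed for 1 gene, and that under acute restriction for 3 genes, which are also among the 61. Each was singled out by edgeR's test of the difference itself, with mouse as a block. When program and other nuclei were chosen after thinning to 3000 UMIs, which keeps fewer nuclei, 1 of the 61, none of the 3 and not the 1 long-term gene was called. Thinning also places program nuclei that fall short among the others, so this loss cannot decide whether the differences hold. Depth moves with age in these nuclei, and its part in the 61 calls cannot be told apart from that of age. Of 29 values compared over the 4 long-term mice, 0 had a mouse apart from the others by Dixon's criterion.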

How the results depend on the processing

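The count of 183 ageing genes became 958 with DESeq2, 391 without a filter on low counts, 1482 with a replicate block, 1931 with a term for the libraries numbered 1, 1451 without those libraries, 3 with depth as a covariate and 34 with the length trend removed. It ran from 24 to 873 with a mouse left out. The replicate numbers do not pair the mice, so the block is only an alternative. Of 32 genes named or called in a list, 32 kept their call with the block, 31 with DESeq2, 14 with the length trend removed and 3 with depth as a covariate, where 0 of the 32 reversed. Without old ad libitum mouse 1, 2 or 4, 14, 11 and 14 kept it, and without young mouse 2, 15.

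For restriction, where no gene was called, DESeq2 gave 3 (long-term) and 12 (acute), the term for the libraries numbered 1 gave 6 and 19, and other settings gave acute counts of 2 (no filter), 1 (replicate block), 12 (libraries not numbered 1) and 1 (doublets removed). With a mouse left out both stayed at 0.

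The 61 genes that differed from other granule nuclei with age became 30 with DESeq2, 177 without a filter, 38 without the libraries numbered 1, 15 with matched nuclei, 30 with at least 3 program UMIs, 106 with doublets removed and 1 after thinning, an alternative chosen after seeing the data. With a mouse left out they ran from 1 to 74. The long-term count of 1 became 0, 51, 6, 0, 3 and 3 with DESeq2, no filter, libraries not numbered 1, 3 UMIs, doublets removed and thinning, and ran from 0 to 19 with a mouse left out. The acute count of 3 became 1 (DESeq2), 30 (no filter), 0 (3 UMIs) and 0 (thinning), and ran from 0 to 8. Thinning turned Pappa with age (0.17) and Shroom4 under acute restriction (-0.0073). The causes were not tested.

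Differences in the program share turned as follows, in percentage points. Old minus young was 0.820 at 2000 UMIs and 8.87 without thinning, and all old minus young 2.94 without thinning. Long-term minus old ad libitum was -2.06 at 2000 UMIs, -2.14 at 5000, -7.18 without thinning, -0.195 with at least 1 program UMI, -0.541 without the libraries numbered 1 and -0.178 without long-term mouse 1. Long-term minus acute was -0.528 at 2000 UMIs. With a mouse left out, F ran from 1.48 to 7.92 (adjusted p 0.0432 by exact permutation at the highest), old minus young from -2.78 to -1.80, long-term from -0.178 to 0.909, acute from -2.01 to -0.0785, long-term minus acute from 0.516 to 2.45 and all old minus young from -2.85 to -1.87.

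In all granule nuclei, 1 of the 4 program genes, Dsp, was called with age with the term for the libraries numbered 1, and 1, also Dsp, without them. All genes called in these settings were 2680 of 16918 and 2357 of 17149. With a mouse left out, log2 differences turned for Lct with age (-0.34 to 0.0397, above 0 without young mouse 3), for Dsp under long-term restriction (-0.0491 to 0.382, below 0 without long-term mouse 1) and acute restriction (-0.086 to 0.244, below 0 without old ad libitum mouse 4 or acute mouse 2), and for Npnt under acute restriction (-0.0255 to 0.21, below 0 without acute mouse 1). Long-term minus acute turned for Dsp (-0.0994 to 0.239, below 0 without long-term mouse 1, and -0.058 without the libraries numbered 1) and Lct (-0.362 to 0.107, above 0 without acute mouse 2). Depth per nucleus limits all comparisons of shares.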
